A study of Homo sapiens with 3 samples.

Results

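SNORD32A, SNORD33, SNORD34 and SNORD35A are 4 box C/D small nucleolar RNAs (snoRNAs) that lie in introns of RPL13A, the gene of a protein of the large ribosomal subunit. They were taken by name, as the records on the entries U32A, U33, U34 and U35A, and are 4 of the 260 snoRNA entries that had reads. The reads came from 3 small RNA libraries of HEK293, a human embryonic kidney cell line in long use, and form 1 group without a contrast between conditions. The cells grew in serum-containing DMEM, and the labels name no genotype change and no agent. Separate cultures are not stated for the libraries, so p-values below measure only the spread between these libraries, and that spread may be technical. Libraries 1, 2 and 3 held 19989, 11958 and 19092 snoRNA counts, of which 548, 197 and 517 fell on these 4 snoRNAs (2.37% ± 0.62 of the counts, SD, n = 3). Intervals given below are exact (Clopper-Pearson) 95% binomial intervals, and they cover counting error only, since amplified reads that carry no molecular identifier need not stem from different molecules.

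Box C/D snoRNAs guide 2′-O-methylation of ribosomal RNA. The conserved boxes C and D bind the core proteins, and a stretch of bases upstream of box D or of its copy inside the molecule pairs with the rRNA. Most human box C/D snoRNAs are cut out of introns: the lariat is opened, and exonucleases trim both ends back to the protein-bound core, so that mature ends lie close to the boxes. SNORD33 guides methylation in 18S rRNA, SNORD34 and SNORD35A guide it in 28S rRNA, and SNORD32A has targets in both. The RPL13A snoRNAs are also known from work on lipotoxicity. There, some members of the group were found to act in the death of cells loaded with saturated fatty acids and to accumulate in the cytoplasm under such stress. No fatty acid treatment was part of the libraries described here.

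The sequences are shown because the members differ in their boxes and ends, and reads are placed against the boxes below. They are from GENCODE 29 on GRCh38, written 5′ to 3′ on the RNA strand with T for U. Capitals mark box C (the first TGATGN within 25 bases of the 5′ end) and box D (the last CTGA within 25 bases of the 3′ end).
SNORD32A: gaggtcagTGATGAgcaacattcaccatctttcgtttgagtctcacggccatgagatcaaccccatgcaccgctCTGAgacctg
SNORD33: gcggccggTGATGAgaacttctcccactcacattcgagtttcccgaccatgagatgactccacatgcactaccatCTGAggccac
SNORD34: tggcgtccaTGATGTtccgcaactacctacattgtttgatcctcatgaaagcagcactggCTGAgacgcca
SNORD35A: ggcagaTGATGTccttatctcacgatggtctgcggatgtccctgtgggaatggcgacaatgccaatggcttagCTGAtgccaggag

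SNORD32A and SNORD33 have TGATGA at box C, and SNORD34 and SNORD35A have TGATGT. Of the 121 box C/D entries with an annotated sequence, 60.3% hold TGATGA and 19.0% hold TGATGT within the first 25 bases, 88.4% hold TGATGN (which includes both), and 97.5% hold CTGA within the last 25. All these searches were made on the RNA strand. SNORD34 is the shortest of the 4, with 71 annotated bases against 84 to 86, and 45 bases between the boxes against 60 or 61. It also has the longest uninterrupted match between the bases before box C and the reverse complement of those after box D, with 7 bases (tggcgtc), against 5 in SNORD32A and 4 in SNORD33 and SNORD35A. SNORD32A and SNORD33 are the most alike pair of the 4, with 70.1% identity over 87 aligned columns, and the other 5 pairs have between 44.2% and 57.0%.

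All 4 lie on the plus strand of chromosome 19 within RPL13A (49487554 to 49492308). Against the 8-exon transcript RPL13A-201, each sits in an intron of its own and overlaps no exon. SNORD32A (49489965 to 49490048) is in intron 2, SNORD33 (49490615 to 49490699) in intron 4, SNORD34 (49490904 to 49490974) in intron 5 and SNORD35A (49491175 to 49491260) in intron 6. SNORD33 and SNORD34 end 79 and 65 nt before the 3′ splice site, in introns of 202 and 175 nt. SNORD32A and SNORD35A lie in longer introns, of 309 and 325 nt, and end 183 and 164 nt before it.

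By their share of reads, the 4 snoRNAs of this single host transcript fell into an abundant and a scarce pair. SNORD34 had 1.67% of the counts in library 1, 0.953% in library 2 and 0.869% in library 3 (334, 114 and 166 reads). SNORD32A took 0.675%, 0.577% and 1.36% (135, 69 and 260 reads). SNORD33 took 0.145%, 0.0585% and 0.246% (29, 7 and 47 reads), and SNORD35A took 0.25%, 0.0585% and 0.230% (50, 7 and 44 reads). In every library both SNORD32A and SNORD34 were above both SNORD33 and SNORD35A, and the values of the pairs did not overlap. In such bulk RNA, fewer cells that make a snoRNA and less of it per cell cannot be told apart. How well each snoRNA was recovered in the libraries was not tested, so read ratios need not equal RNA ratios. The abundant pair also had the lowest highest positions of any read, 66 and 77 nt against 82 and 86.

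**Figure D1:**
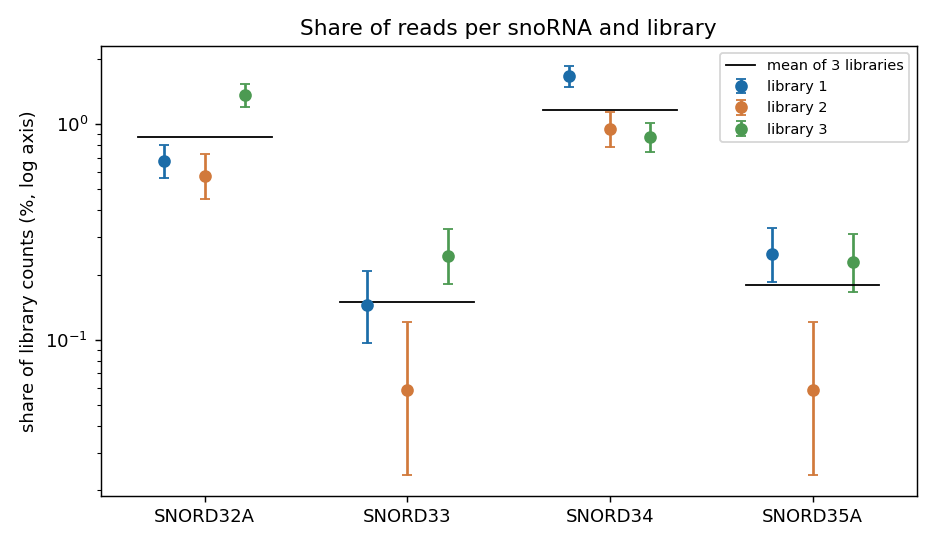
Share of library counts (percent, log axis) of the 4 RPL13A snoRNAs; points are the 3 libraries, bars the exact 95% binomial intervals and black lines the means. SNORD32A and SNORD34 lie between 0.577% and 1.67%, above SNORD33 and SNORD35A at 0.0585% to 0.25%.

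To compare levels between snoRNAs of different length, counts were scaled to 10000 library counts and 100 nt, with the highest position of any read as the length (77, 82, 66 and 86 nt for SNORD32A, SNORD33, SNORD34 and SNORD35A). On this scale the mean level was 176 ± 67 for SNORD34, 113 ± 56 for SNORD32A, 20.9 ± 12 for SNORD35A and 18.3 ± 11 for SNORD33 (SD, n = 3). By the mean log2 ratio, SNORD34 was 10.8-fold above SNORD33 and 9.68-fold above SNORD35A, and SNORD32A was 6.74-fold above SNORD33 and 6.03-fold above SNORD35A, in 3 of 3 libraries each. The log2 difference of SNORD33 minus SNORD34 was -3.44 ± 1.16 (SD), -2.99 without library 2 and -4.09 without library 3. Each of these 4 ratios had p = 0.25 in an exact permutation test that flips the sign of each library's value (two-sided), and 3 libraries allow no smaller p. It was 0.375 after Benjamini-Hochberg adjustment over 6 pairs. The p thus records direction only. Most reads spanned a whole snoRNA, so counts need not grow with length, and the division raises the shortest, SNORD34, most. Without it the log2 difference was -3.12 for SNORD33 minus SNORD34 and 2.89 for SNORD34 minus SNORD35A. For SNORD32A it was 2.66 against SNORD33 and 2.43 against SNORD35A.

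Within each pair the order was not fixed. SNORD34 was above SNORD32A in libraries 1 and 2, and below it in library 3, where the levels were 132 and 177. The mean log2 difference, SNORD32A minus SNORD34, was -0.68 ± 1.00 (SD, n = 3; exact permutation p = 0.5, adjusted 0.6), -0.26 without library 1, -0.55 without library 2 and -1.24 without library 3. Of the counts on the 4 snoRNAs, SNORD34 held 60.9% (95% interval 56.7% to 65.1%), 57.9% (50.6% to 64.9%) and 32.1% (28.1% to 36.3%) in libraries 1, 2 and 3. SNORD32A held 24.6% (21.1% to 28.5%), 35% (28.4% to 42.1%) and 50.3% (45.9% to 54.7%). The turn in library 3 was thus larger than counting error. SNORD33 and SNORD35A differed by -0.16 ± 0.48 on the log2 scale (SD, n = 3), SNORD33 being lower in library 1 and higher in libraries 2 and 3 (exact permutation p = 1).

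Among the 147 box C/D entries with reads, SNORD34 ranked 19 by mean level per length, SNORD32A 35, SNORD35A 101 and SNORD33 105. By mean share, which is not divided by length, they ranked 24, 33, 100 and 104 in the same order. The median level of the 4 was 67.0, against 36.9 over all box C/D entries, 121 over the 10 snoRNAs of the non-coding host GAS5, 104 over the 8 of SNHG1 and 75.5 over 31 box C/D snoRNAs of other ribosomal protein genes. The median of the 4 falls in the gap between the pairs, and SNORD33 and SNORD35A (18.3 and 20.9) were below the median of all box C/D entries. The highest and lowest mean level within RPL13A differed 9.65-fold. Of the 14 host genes with at least 3 box C/D snoRNAs, RPL13A ranked 10 from the narrowest spread. RPL3 had the narrowest, with 2.11-fold over 3 snoRNAs, and SNHG1 the widest, with 49.9-fold over 8. These spreads are descriptions that use the levels divided by length, and the number of snoRNAs differs between hosts.

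**Figure D2:**
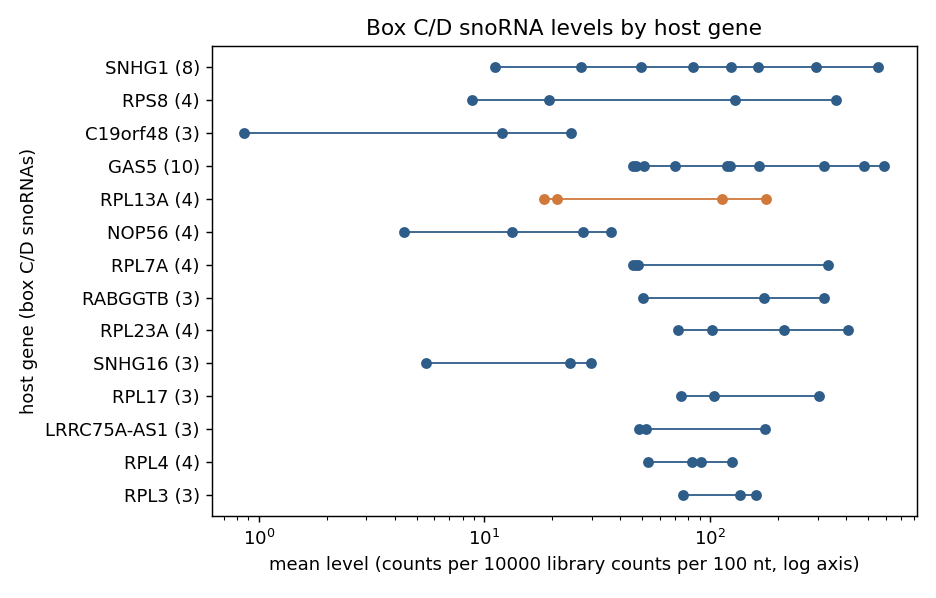
Mean level of each box C/D snoRNA (counts per 10000 library counts per 100 nt, log axis) by host gene, with the number of snoRNAs in parentheses; points are snoRNAs, lines run from the lowest to the highest, and RPL13A is in orange. The RPL13A snoRNAs lie in a low pair near 20 and a high pair above 100, in a range of 9.65-fold.

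SNORD32B, the annotated relative of SNORD32A on another chromosome, had no entry with reads. It has 89.3% identity to SNORD32A over 84 columns and a shared run of 24 bases, so short reads of the 2 cannot be told apart in that run, and the list of sequences that the authors matched reads to was not used here.

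Most reads of the 4 snoRNAs were full length, meaning that they spanned at least 90% of the snoRNA. SNORD34 had 91.9%, 87.7% and 93.4% full-length reads in libraries 1, 2 and 3 (mean 91.0% ± 2.9, SD, n = 3), and SNORD32A had 94.1%, 88.4% and 89.6% (90.7% ± 3.0). SNORD33 had 75.9%, 71.4% and 91.5% (79.6% ± 11), and SNORD35A had 80%, 57.1% and 84.1% (73.7% ± 15). With a limit of 95% the mean for SNORD35A was 36.4%, below 50%. The scarce pair was lower on average, but with wide limits. In library 2, with 7 reads each, the 95% intervals ran from 29% to 96.3% for SNORD33 and from 18.4% to 90.1% for SNORD35A.

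Library 2 had shorter reads than the others throughout, with 27.3% of all counts at up to 40 nt against 11.9% and 12.1%, and its part in these shares was not tested. Without library 2 the means were 83.7% for SNORD33 and 82.0% for SNORD35A. SNORD32A and SNORD34 each exceeded SNORD35A in 3 of 3 libraries, by 17.0 ± 13 and 17.3 ± 12 percentage points (SD, n = 3), or 9.80 and 10.6 without library 2, and SNORD34 exceeded SNORD33 by 11.4 ± 8.3 in 3 of 3. Each had p = 0.25 in the same exact permutation test, and 0.5 adjusted over 6 pairs. Both differences from SNORD35A use its length of 86 nt, which rests on a single read. With its commonest last position, 82 nt, as length they were 12.01 ± 17.07 for SNORD32A and 12.32 ± 15.83 for SNORD34. At that length the SD exceeded both differences, and the order in each library was not tested. SNORD32A and SNORD34 differed by -0.30 ± 3.1 percentage points, with SNORD32A higher in 2 of 3 libraries (exact permutation p = 1).

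**Figure D3:**
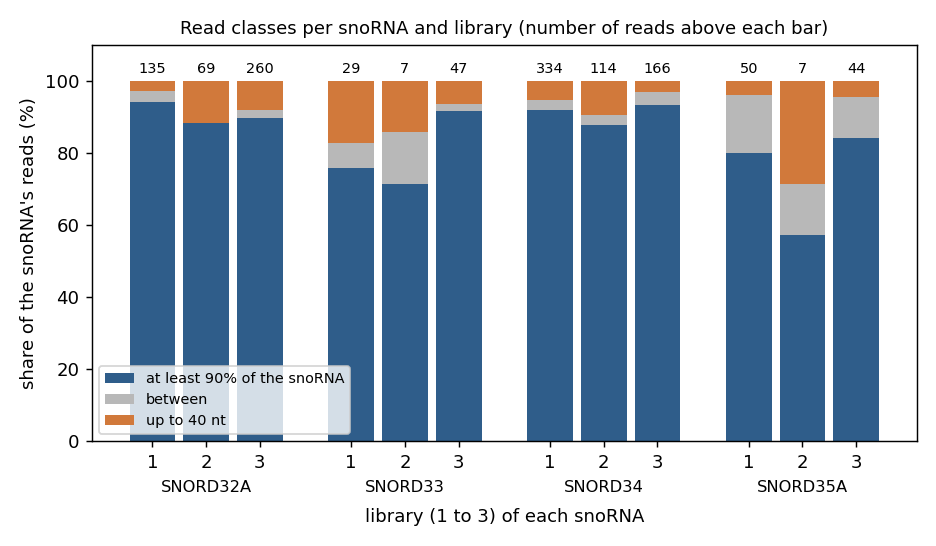
Share of each RPL13A snoRNA's reads (percent) that spanned at least 90% of the snoRNA, had up to 40 nt, or lay between, in libraries 1 to 3, with the number of reads above each bar. SNORD32A and SNORD34 have 87.7% to 94.1% full-length reads in every library, and the bars of 7 reads in library 2 rest on few reads.

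The abundant pair also stood high among snoRNAs as a whole. The ratio of full-length to other reads was tested for each snoRNA with edgeR's quasi-likelihood test, relative to the typical snoRNA of the same libraries (TMM scaling, library as block), for the 125 snoRNAs that reached 10 counts in each library. SNORD34 had 307, 100 and 155 full-length and 27, 14 and 11 other reads, a log2 ratio of 2.04 ± 0.23 (SE, n = 3) above the typical snoRNA, with an edgeR adjusted p of 1.09e-05. SNORD32A had 127, 61 and 233 full-length and 8, 8 and 27 other reads, a log2 ratio of 1.94 ± 0.30 with an edgeR adjusted p of 0.00013. They ranked 3 and 5 of 125, and both members tested were called with a higher full-length ratio, where 23.2% of all snoRNAs tested were called in that direction and 37.6% in the other. SNORD33 and SNORD35A were below 10 counts in library 2 and were not tested. Length here was the highest position of any read, and a product well short of that length counts as other reads. SNORD69, with 241, 140 and 140 ungapped reads from position 9 to 69 in libraries 1, 2 and 3, ranked 124 of 125. The rank thus also depends on how closely this length matches the reads of each snoRNA.

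With no filter on counts, SNORD33 had a log2 ratio of 1.14 ± 0.61 (SE, edgeR adjusted p = 0.168) and SNORD35A one of 0.73 ± 0.54 (edgeR adjusted p = 0.299), and neither passed the threshold of 0.05. Of the 10 GAS5-hosted snoRNAs 2 were called with a higher and 5 with a lower ratio, of 7 SNHG1-hosted ones 3 and 1, and of 27 hosted by other ribosomal protein genes 9 and 4. Over all 125 snoRNAs, 29 were called with a higher and 47 with a lower ratio. This split depends on the scaling, with 40 and 34 when no TMM factor was used and 28 and 30 with DESeq2, which moved the median log2 ratio by 0.47 and 0.26. SNORD32A and SNORD34 kept their sign and call under both.

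**Figure D4:**
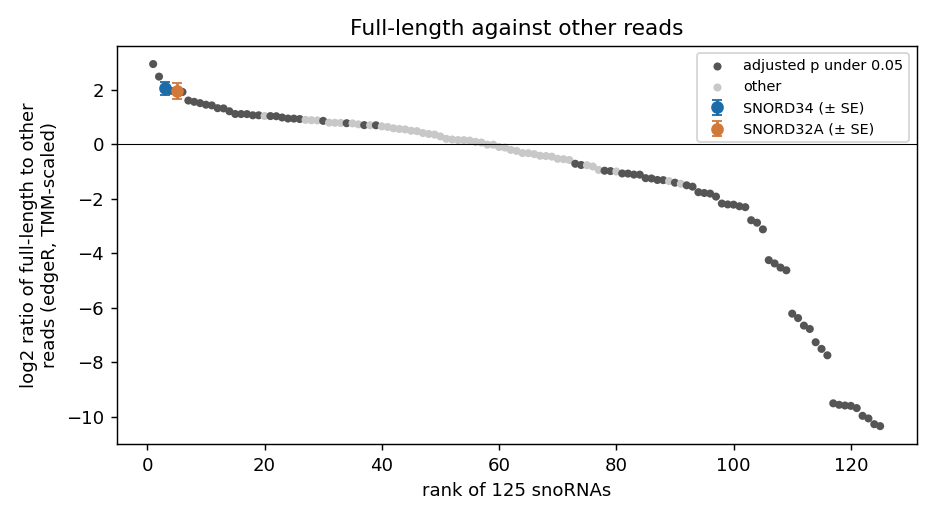
Log2 ratio of full-length to other reads (edgeR, TMM-scaled) for 125 snoRNAs in order of rank; dark points passed an adjusted p of 0.05, and coloured points with SE bars are SNORD34 and SNORD32A. SNORD34 and SNORD32A rank 3 and 5, with ratios of 2.04 and 1.94.

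The full-length reads differed in how sharp their ends were. Positions are counted from 1 at the first base of the entry the authors matched reads to. No position can lie outside the entry, so an end beyond it could be placed at its edge. In SNORD32A, SNORD33 and SNORD34 the commonest last position was also the highest of any read (77, 82 and 66). Whether their molecules ran further was not tested. On these positions SNORD32A had the sharpest ends: 412 of 421 full-length reads began at position 1 and 409 ended at position 77. In SNORD33, 65 of 70 began at position 1 and 60 ended at position 82, with 7 more at 81. SNORD34 began sharply, with 524 of 562 reads at position 1, but its 3′ end was spread, with 380 reads ending at position 66, 131 at 65, 12 at 64 and 34 at 63. The shorter end at 65 was present in every library (64, 20 and 47 reads).

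SNORD35A was loose at both ends. Of 81 full-length reads, 62 began at position 1 and 19 at position 2, and 47 ended at position 82, 13 at 81, 6 at 80 and 14 at 79. The highest position in SNORD35A, 86, equals its annotated length and came from a single read, so its positions can be set on the printed sequence if the entry starts at the same base. There box D covers positions 74 to 77, and nearly all full-length reads ended 2 to 5 nt after it and began 6 or 5 nt before box C. By their highest position, the entries of SNORD32A, SNORD33 and SNORD34 are 7, 3 and 5 bases shorter than the annotated genes, and their offset within them is not known. RefSeq (GRCh38.p14) gives SNORD34 a length of 66 nt, equal to its highest position. It gives SNORD32A 82 nt and SNORD33 83 nt, above their highest positions of 77 and 82.

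Reads with both commonest ends made up 96.1% ± 2.7 of the full-length reads of SNORD32A, 78.0% ± 4.7 of SNORD33, 63.5% ± 6.5 of SNORD34 and 46.2% ± 20 of SNORD35A (SD, n = 3). In library 2 the value for SNORD35A rests on 4 full-length reads, of which 1 had both ends. SNORD32A was above the other 3 in every library, and SNORD34 was below SNORD33 in every library. The SNORD33 values also rest on few reads: 16 of 22, 4 of 5 and 35 of 43 in libraries 1, 2 and 3.

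**Figure D5:**
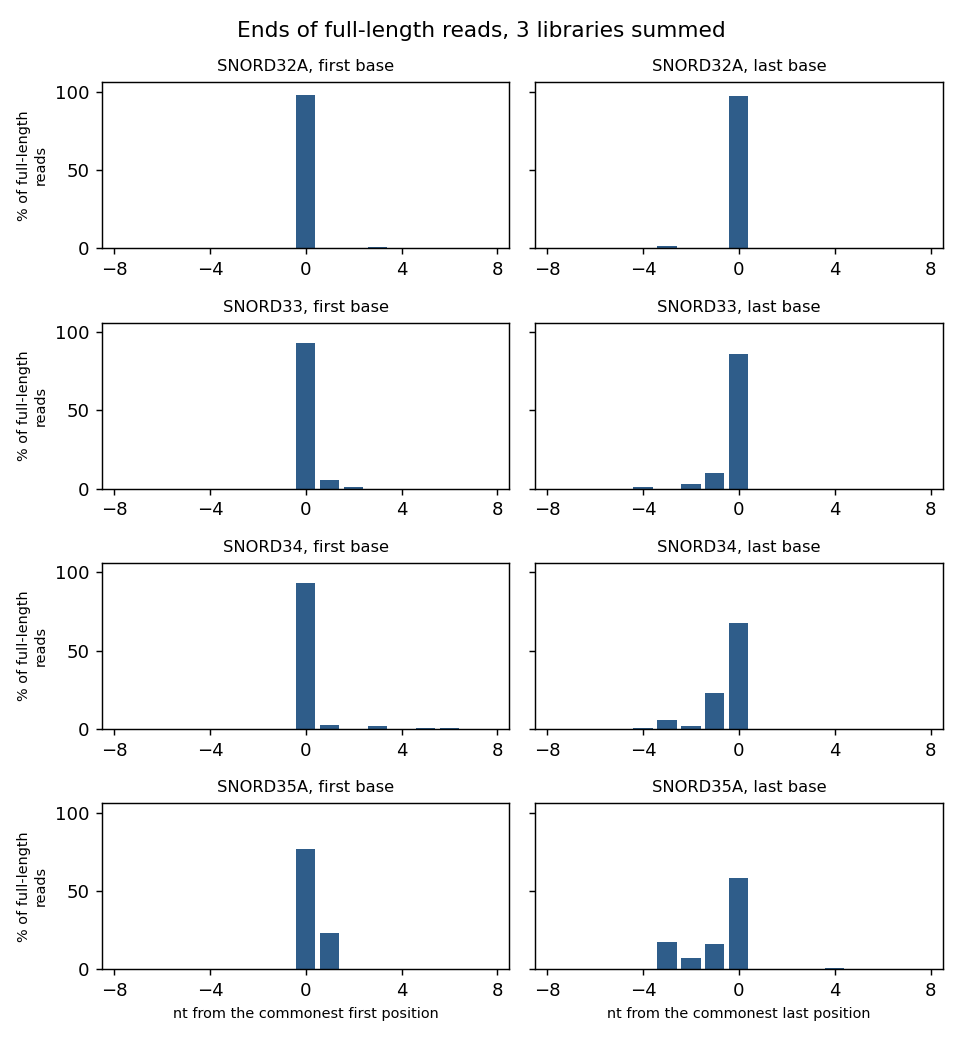
First and last base of full-length reads of the 4 RPL13A snoRNAs, as percent of these reads with the 3 libraries summed, by distance in nt from the commonest position. SNORD32A has 97.9% and 97.1% of reads at the commonest first and last base, SNORD34 a spread last base (67.6% at the commonest), and SNORD35A a spread on both sides (76.5% first, 58.0% last).

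Where reads were centred was tested over all snoRNAs. Reads were placed in the 5′ or the 3′ part of the snoRNA by their midpoint, and 108 snoRNAs with at least 10 placed reads in every library were tested with edgeR (library as block). SNORD34 had 107, 39 and 62 reads centred toward the 5′ end in libraries 1, 2 and 3, against 23, 7 and 14 toward the 3′ end, a log2 ratio of 3′ to 5′ reads of -2.25 ± 0.27 (SE, n = 3) with an edgeR adjusted p of 0.000657. SNORD32A had 10, 6 and 30 against 0, 4 and 13, with -1.58 ± 0.73 and an edgeR adjusted p of 0.0962. Both had more reads toward the 5′ end, and 1 of the 2 passed the threshold, where 39.8% of all 108 snoRNAs were called in that direction and 26.9% toward 3′. Of the 208 reads of SNORD34 in the 5′ part, 172 were full length and 122 ran from position 1 to 65, missing only the last base.

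SNORD33, with 17 reads toward the 5′ end and 11 toward the 3′ end, and SNORD35A, with 89 and 12, were not tested. The count for SNORD35A depends on the length: with 82 nt, its commonest last position, in place of 86, the counts were 37 and 15, and 49 reads lay on the middle. With no filter on counts SNORD35A had a log2 ratio of -2.78 ± 0.59 (SE; edgeR adjusted p = 0.00682), a value that uses the length of 86 nt. In the same run SNORD33 had -0.54 ± 0.64 (SE; edgeR adjusted p = 0.555).

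Short reads, of up to 40 nt, were few. The 4 snoRNAs had 82 of them in all, against 1134 full-length reads. SNORD32A had 4, 8 and 21 in libraries 1, 2 and 3, SNORD34 had 18, 11 and 5, SNORD33 had 5, 1 and 3, and SNORD35A had 2, 2 and 2. As shares of each snoRNA's reads these were 7.54% ± 4.3, 6.02% ± 3.4, 12.6% ± 5.6 and 12.4% ± 14 (SD, n = 3). The value for SNORD35A rests on library 2: it was 4.27% without it, 20.4% with ungapped reads only and 6.28% for reads of up to 30 nt. With each distinct record counted once, the shares were 14.8% for SNORD32A, 17.7% for SNORD34, 23.3% for SNORD33 and 14.8% for SNORD35A. Of the 6 pairs 1 had the same order in 3 of 3 libraries, with SNORD33 above SNORD34 by 6.62 ± 4.6 percentage points, and in the other 5 the SD exceeded the difference. The smallest p over the pairs was 0.25 by the exact permutation test, 0.9 after adjustment. Over the 108 box C/D snoRNAs that reached 10 counts in each library, the median share was 15.4%, and SNORD32A and SNORD34 ranked 94 and 101 of 108 from the highest.

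Short reads of SNORD32A came mainly from its 5′ end. Of 33, 26 began at position 1, 6 others ended at or within 2 nt of position 77, and 1 was internal. All 26 cover box C wherever the entry lies within the annotated gene. Of the 34 short reads of SNORD34, 16 began at position 1, 12 ended at or within 2 nt of the 3′ end and 6 were internal. Of these 34, 17 to 20 cover box C, depending on the placement, and 12 cover box D under every placement. SNORD33 had 3 short reads from position 1, 5 at or within 2 nt of the 3′ end and 1 internal. Of these, 3 cover box C and 6 cover box D. SNORD35A had 1, 3 and 2 short reads of these kinds in the same order, of which 1 covers box C and 5 cover box D. No fragment was dominant: the leading short spans, 1 to 29, 56 to 77, 1 to 26 and 1 to 33 in SNORD32A and 1 to 34 in SNORD34, had 4 reads each, summed over the libraries.

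Reads of miRNA size, 20 to 24 nt, numbered 11 in SNORD32A, 12 in SNORD34, 3 in SNORD33 and 2 in SNORD35A, together 2.22% of the reads of the 4 snoRNAs. Reads of 27 to 31 nt numbered 6, 4, 2 and 1. No read of the 4 lay on the opposite strand.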

How the data were processed

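Small RNA was purified with beads from phenol/chloroform-extracted RNA, and an Ion Torrent kit was used for the libraries, per the labels' protocols. Per the file headers, the authors deposited unnormalized counts: reads for each combination of snoRNA entry, read length, first and last position. The submitters' processing notes name GRCh38.p10. For the aligner, trimming and filters, the sources used here give nothing. A deposited table of counts for the whole series was read for library 1 only: it lists SNORD32A and SNORD34 with the same 135 and 334 counts and leaves out the other 2. Its other per-sample columns, 2 in number, carry names that fit no sample and were left aside.

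Of 260 entries, 246 were named by a symbol from a RefSeq gene table (GRCh38.p14). Host genes and sequences came from GENCODE 29, except that the GAS5 and SNHG1 lists were fixed by name. The list of 31 box C/D snoRNAs of other ribosomal protein genes was also fixed by name. It leaves out some that GENCODE places in such genes, among them SNORD4A, SNORD4B and SNORD73A. Reads whose length differed from their span made up 17.2% to 24.3% of counts and were kept. For a snoRNA without reads the upper limit is 3 counts, or 0.015%, 0.0251% and 0.0157% of libraries 1, 2 and 3. Tests used edgeR 4.0.16 and DESeq2 1.42.0 in R 4.3.3, with Benjamini-Hochberg adjustment at 0.05 over all snoRNAs tested. Both tests compare 2 kinds of reads of the same library, which pairs them, hence the library as block. Other steps ran in Python 3.11.15 (SciPy 1.17.1, pandas 2.3.3, matplotlib 3.10.9, NumPy 2.4.6). The members and lists were chosen with earlier results of these data known. All 4 members were named for levels, full-length shares, ends and short reads, with the relative SNORD32B. Leading short spans, records that share a span and the direction of gaps are given for SNORD32A and SNORD34 only. A further comparison is not reported here. The files list no protein-coding genes, so the cell line was not checked by markers. Of the imprinted clusters active in brain, SNORD113, SNORD114 and SNORD115 had no entry with reads, and SNORD116 had 5 reads, all on the opposite strand.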

Additional observations from a re-analysis of the deposited data

How the results depend on the processing

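SNORD32A and SNORD34 kept their higher full-length ratio past the threshold under every alternative run, with log2 ratios of 1.62 to 2.42 and 1.83 to 2.50, and SNORD34 kept its 5′ call wherever it was tested (-2.83 to -1.80). None of these runs changed the length used for a snoRNA or set the full-length limit at 95%. The number of snoRNAs called changed more. For the full-length ratio it was 17 higher without the replicate block, 30 lower with DESeq2, and 18 to 22 higher (36 to 43 lower) on leaving out a library, with 18 without library 2. For position it was 28 to 62 toward 5′ on leaving out a library, with 28 without library 3, and 10 toward 3′ and 11 toward 5′ with reads spanning at most 50% of the snoRNA, where no member could be tested. With the GENCODE length the full-length share was 87.4% for SNORD32A and 80.7% for SNORD34. With a limit of 95% it was 87.7% for SNORD34 and 36.4% for SNORD35A, whose length rests on a single read; with the commonest last position as length, chosen after seeing the data, SNORD35A had 78.7%. With each distinct record counted once, the short-read share was 14.8% for SNORD32A, 23.3% for SNORD33 and 17.7% for SNORD34. The differences near 0 turned. SNORD33 minus SNORD35A in level was 0.22 with ungapped reads only and -0.32 to 0.12 on leaving out a library (0.12 without library 1). In full-length share at a limit of 80%, SNORD33 minus SNORD35A was -0.12 and SNORD32A minus SNORD34 was 0.11 percentage points, and the latter was -1.54 to 1.42 on leaving out a library (1.42 without library 3). The cause of these shifts was not tested. Depth limits SNORD33 and SNORD35A most, with 7 reads each in library 2.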

Other observations

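Full-span reads of SNORD32A were split over many records. Records that share entry, read length, first and last position are listed separately, and read sequences were not used here. Among ungapped reads of SNORD32A from position 1 to 77, the leading record held 58.1%, 56.5% and 62.9% in libraries 1, 2 and 3, with 19, 13 and 24 records. For SNORD34 from 1 to 66 it held 90.2%, 100% and 94.4%, with 16, 1 and 4 records. Over the 69 box C/D snoRNAs that reached 10 such reads in each library the median was 90.4%, and SNORD32A ranked 10 from the lowest. SNORD32A differs from its annotated relative SNORD32B in 9 of 84 aligned columns, and whether reads of SNORD32B fell on its entry was not tested.

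Gapped reads, whose length differs from their span, made up 25.2% ± 3.0 of SNORD32A, 16.4% ± 5.1 of SNORD34, 8.41% ± 7.6 of SNORD33 and 29.3% ± 12 of SNORD35A reads (SD, n = 3). In SNORD34 they were mainly longer than the span (97 of 109 reads), and in SNORD32A 77 were longer and 45 shorter.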
